A study of Homo sapiens with 6 samples.

Results

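The genes described here encode 37 subunits of the last complexes of the mitochondrial respiratory chain and of the ATP synthase, of 33367 genes matched in all and 14075 genes tested. They were taken by name. For each gene the deposited reads and TPM values (an abundance scaled for transcript length and library total) were summed over its transcripts. Of the 37, 6 are encoded in mitochondrial DNA and 31 in the nucleus, and all 37 passed the filter on low counts. Complex III is represented by 1 mitochondrial and 9 nuclear genes, complex IV by 3 and 10, and the ATP synthase by 2 and 12.

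RNA was sequenced from 6 K562 cultures, each taken at day 4. K562 is a long-established line of human erythroleukaemia cells. Clones carried a doxycycline-inducible short hairpin RNA (shRNA) and all were kept in 2 µg/ml puromycin. The NT clone carried a non-targeting shRNA, and the c1 and c2 clones an shRNA against CDAN1, a gene mutated in a congenital dyserythropoietic anaemia. Each clone gave 1 uninduced library without doxycycline and 1 induced library with 1 µg/ml doxycycline, so the knockdown group held 2 libraries and the control group 4. A clone is 1 isolate of cells, so differences between NT, c1 and c2 cannot be told apart from differences between isolates, and the tests know no spread other than that among these 6 libraries.

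Complex III passes electrons from ubiquinol to cytochrome c, complex IV (cytochrome c oxidase) passes them on to oxygen, and both pump protons across the inner mitochondrial membrane. The ATP synthase uses the return of these protons to make ATP. Each complex joins subunits made inside the mitochondrion with subunits imported from the cytosol, so its assembly draws on 2 genomes. The mitochondrial mRNAs are cut from long transcripts that cover nearly a whole DNA strand, so differences between them also depend on how each one is processed and degraded. In red cell precursors the mitochondrion also makes haem, and it is lost when the cell matures.

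The libraries held 28318555 to 32352246 estimated reads, of which mitochondrially encoded genes took 4.31% to 6.11%. CDAN1, the targeted gene, stood at 62.5 CPM (reads scaled to a common library total) in uninduced NT, 70.2 in induced NT, 37.0 in uninduced c1, 17.0 in induced c1, 55.4 in uninduced c2 and 29.8 in induced c2, so both knockdown libraries lay below all 4 controls. All 12 erythroid and K562 markers exceeded 1 TPM, with a summed level of 29640 to 44560 TPM. B cell markers summed to 0.551 to 2.04 TPM, T cell markers to 22.0 to 80.7, monocyte and granulocyte markers to 57.4 to 85.9, and fibroblast and epithelial markers to 615 to 846. The c2 clone stood apart in its markers. Its libraries had a megakaryocyte sum of 95.1 and 84.1 TPM, against 20.1 and 16.7 in NT and 6.65 and 5.29 in c1. Their erythroid sum was 29640 and 33160 TPM, against 40540 to 44560 in the others. GATA1, an erythroid marker, went the other way, at 331.1 and 307.3 TPM in c2 against 272.9 to 293.8 TPM in the others.

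Per unit of length, the mitochondrial mRNAs were the more abundant in each complex. In complex III, MT-CYB, which encodes cytochrome b, had a median of 3049 TPM over the 6 libraries. The highest nuclear subunit was UQCRH, the hinge protein beside cytochrome c1, at 1376 TPM, and the lowest was UQCR10 at 111.5 TPM. In complex IV, the catalytic subunits MT-CO1, MT-CO2 and MT-CO3 had medians of 10510, 13670 and 12880 TPM. The nuclear subunits of complex IV ran from 920.0 TPM for COX8A down to 22.2 TPM for COX7A2. In the ATP synthase, MT-ATP6, the proton channel subunit a, had a median of 15040 TPM and MT-ATP8 one of 62440 TPM. The nuclear subunits of the ATP synthase ran from 1235 TPM for ATP5F1B, the catalytic beta subunit, to 61.5 TPM for ATP5F1E, the epsilon subunit. Of the ATP5F1E reads 96.08% to 97.59% were assigned to a transcript of 3665 bases. At 172.5 to 178.1 CPM ATP5F1E exceeded ATP5MC1 (53.61 to 69.64 CPM), so its rank in TPM depends on that length. The low level of COX7A2 rested on few reads, 3.77 to 6.30 CPM, of which the largest share was assigned to a retained-intron transcript. MT-ATP8 is 207 bases long, and TPM divides by an effective length that becomes very small for so short a transcript, so its rank in TPM is uncertain.

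The MT-ATP8 and MT-ATP6 reading frames overlap on the mitochondrial genome (GRCh38, chrM:8527-8572, plus strand), so reads from the 46 shared bases had to be divided between them. The first 30 shared bases are printed to show the overlap, with the start codon of MT-ATP6 in capitals.
MT-ATP8 and MT-ATP6: ATGaacgaaaatctgttcgcttcattcatt
MT-ATP6 also has a nuclear copy, the pseudogene MTATP6P1 on chromosome 1. Over 681 bases the copy and MT-ATP6 were 98.53% identical, with 10 mismatches and a longest identical run of 141 bases. Copies of MT-ATP6 held reads equal to 5.47% to 6.52% of those of MT-ATP6, and for the other members the copies held at most 5.03%. A window of 30 bases with 2 mismatches, in capitals, shows how little separates the gene (GRCh38, chrM:8648-8677) from its copy (chr1:633817-633846).
MT-ATP6: gactaatCaccacccaacaatgactaatcA
MTATP6P1: gactaatTaccacccaacaatgactaatcC

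The mitochondrial members moved differently with doxycycline in each clone. In NT all 6 were lower in the induced library. In c1 the 3 complex IV members were lower and the ATP synthase members nearly level, and in c2 only MT-CO1 was lower. MT-CO1 (chrM:5904-7445), the subunit that holds the oxygen-binding site, stood at 13270 CPM uninduced and 9161 CPM induced in NT, at 16600 and 12400 CPM in c1, and at 12070 and 11510 CPM in c2. Its induced level was lower in every clone, although induced c1 exceeded uninduced c2. MT-CO2 (chrM:7586-8269), which takes up electrons from cytochrome c, stood at 5481 and 4095 CPM in NT, 6876 and 5542 CPM in c1, and 5062 and 5296 CPM in c2. MT-CO3 (chrM:9207-9990) stood at 7343 and 5525 CPM in NT, 7351 and 6049 CPM in c1, and 5639 and 6324 CPM in c2. Both were thus lower with doxycycline in NT and c1 and higher in c2.

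MT-CYB (chrM:14747-15887) stood at 2654 CPM uninduced and 2296 CPM induced in NT, 2528 and 2487 CPM in c1, and 1984 and 2508 CPM in c2. MT-ATP6 (chrM:8527-9207) stood at 6347 and 5576 CPM in NT, 6441 and 6515 CPM in c1, and 4445 and 5442 CPM in c2. MT-ATP8 (chrM:8366-8572) stood at 1294 and 1154 CPM in NT, 1285 and 1331 CPM in c1, and 1019 and 1206 CPM in c2. For these 3 genes uninduced c2 was the lowest of the 6 libraries and induced c2 lay inside the range of the others.

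**Figure D1:**
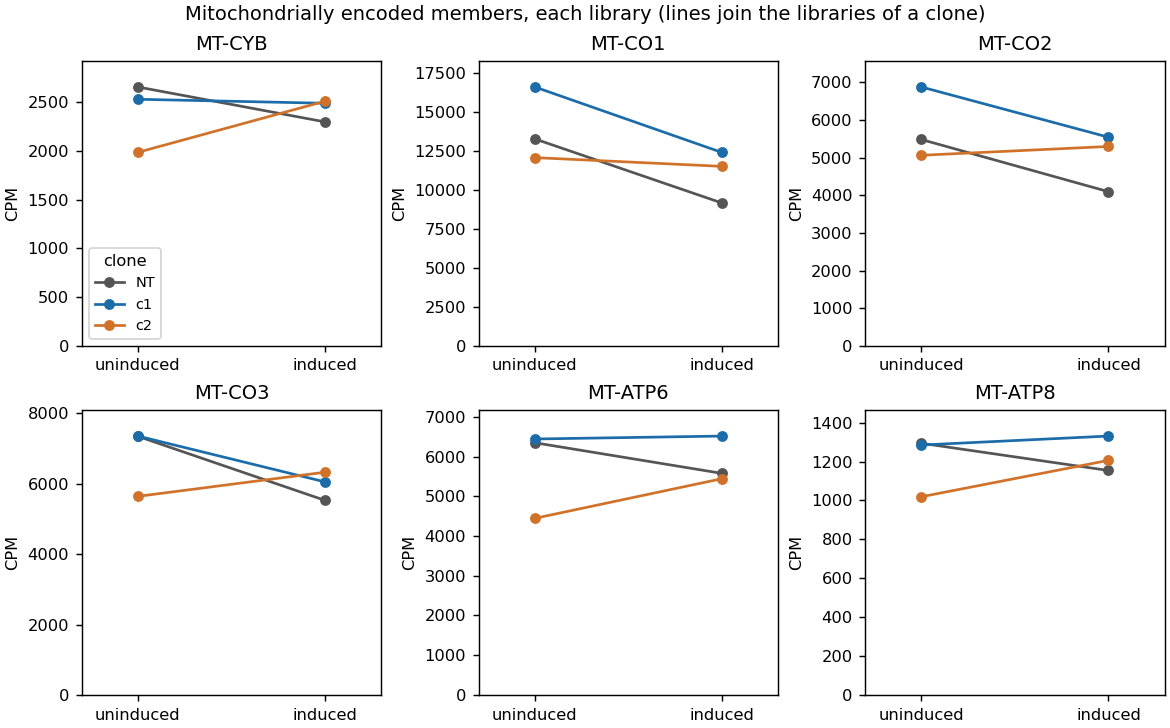
CPM of the 6 mitochondrially encoded members in each library, with a line joining the uninduced and induced library of each clone (each axis starts at 0). MT-CO1 slopes down in all 3 clones, from 13270 to 9161 CPM in NT, while MT-CYB slopes up only in c2, from 1984 to 2508 CPM.

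Reads of the 13 mitochondrial protein-coding genes were summed, and the share of each in the sum was compared between induced and uninduced libraries. For 12 genes the share differed in the same direction in the 3 clones, and for MT-CO3 it did not. These are not 13 separate cases, since the shares add up to a fixed whole and MT-ATP8 overlaps MT-ATP6. Some shares hardly differed: in c1 the induced share was 99.74% of the uninduced share for MT-ND1 and 100.8% for MT-ND5. The pattern of directions was chosen after the values were seen. Summed over all 13 genes, the induced level was 76.0% of the uninduced level in NT, 82.1% in c1 and 105.2% in c2. Within that sum the share of MT-CO1 went from 23.55% to 21.4% in NT, from 26.7% to 24.3% in c1 and from 26.3% to 23.8% in c2. The share of MT-CYB went from 4.71% to 5.36% in NT, from 4.07% to 4.87% in c1 and from 4.32% to 5.19% in c2. The share of MT-ATP6 went from 11.3% to 13.02% in NT, from 10.35% to 12.75% in c1 and from 9.67% to 11.3% in c2. MT-CO1 therefore took a smaller part, and MT-CYB, MT-ATP6 and MT-ATP8 a larger part, in every clone. The induced share of MT-CO2 was 98.3% of the uninduced share in NT, 98.1% in c1 and 99.5% in c2, close to no difference. For MT-CO3 it was 98.99% in NT, 100.2% in c1 and 106.7% in c2, so this member was not alike in the clones.

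Reads of MT-CO1 per read of MT-CYB compare these mRNAs without any library scaling. This ratio was 5.0 uninduced and 3.99 induced in NT, 6.56 and 4.99 in c1, and 6.09 and 4.59 in c2. The induced ratio was 79.8% of the uninduced ratio in NT, 76.0% in c1 and 75.4% in c2. For MT-CO2 over MT-CYB it was 86.4%, 81.95% and 82.75% in the same order, and for MT-CO3 over MT-CYB 87.0%, 83.7% and 88.7%. For MT-ATP6 over MT-CYB it was 101.6%, 102.8% and 96.8%, so that pair kept nearly the same ratio. The mean log2 change of the MT-CO1 to MT-CYB ratio was −0.38 ± 0.04 (SD, n = 3 pairs), with an exact two-sided permutation p of 0.25 over the sign of each pair. This is the smallest p that 3 pairs allow, so the test cannot pass 0.05. The NT pair, which carries no CDAN1 shRNA, moved in the same direction as the others.

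**Figure D2:**
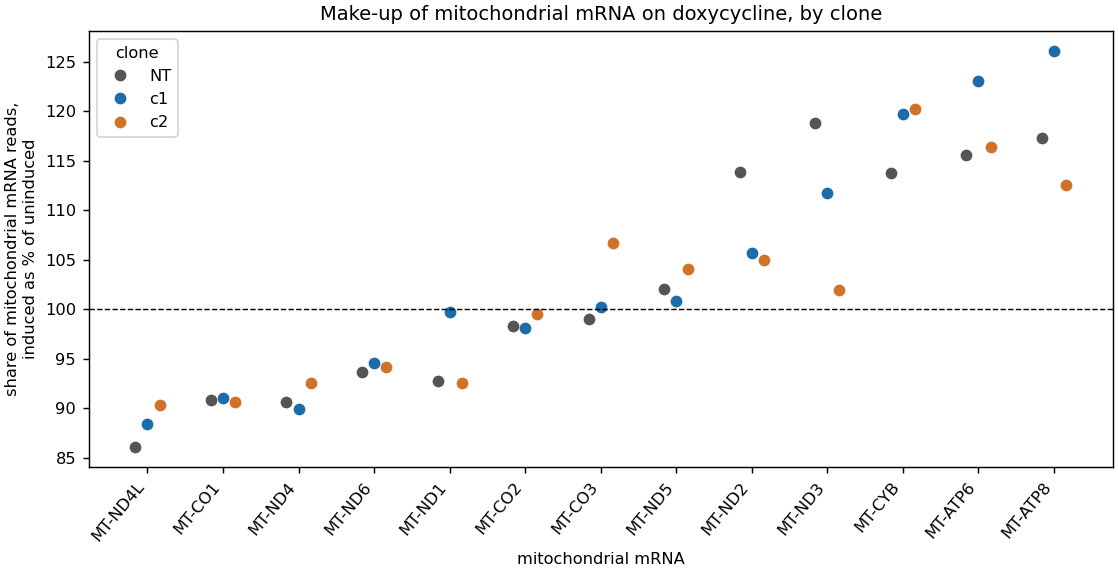
Share of each of the 13 mitochondrial protein-coding genes in their summed reads, induced as a percentage of uninduced. There is 1 point per clone and a dashed line at no change (the axis does not start at 0). MT-CO1 lies between 90.7% and 91.0% in the 3 clones and MT-CYB between 113.8% and 120.2%, while MT-CO3 lies on both sides of the line.

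Against the nuclear subunits of their own complex, the mitochondrial members showed no common response to doxycycline. The measure is the mean log2 CPM of the mitochondrial members minus that of the nuclear members, a difference between 2 groups of genes in 1 library. For complex III it changed on induction by −0.19 in NT, −0.07 in c1 and 0.38 in c2. For complex IV the changes were −0.38, −0.31 and 0.06, and for the ATP synthase −0.12, 0.07 and 0.33. Over c1 and c2 the mean change was 0.16 ± 0.32 for complex III, −0.12 ± 0.26 for complex IV and 0.20 ± 0.18 for the ATP synthase (SD, n = 2 clones). In complexes III and IV the spread between the clones was larger than the mean, and c1 and c2 differed in sign. Leaving out c1 or c2 moves these means to the single values just given.

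**Figure D3:**
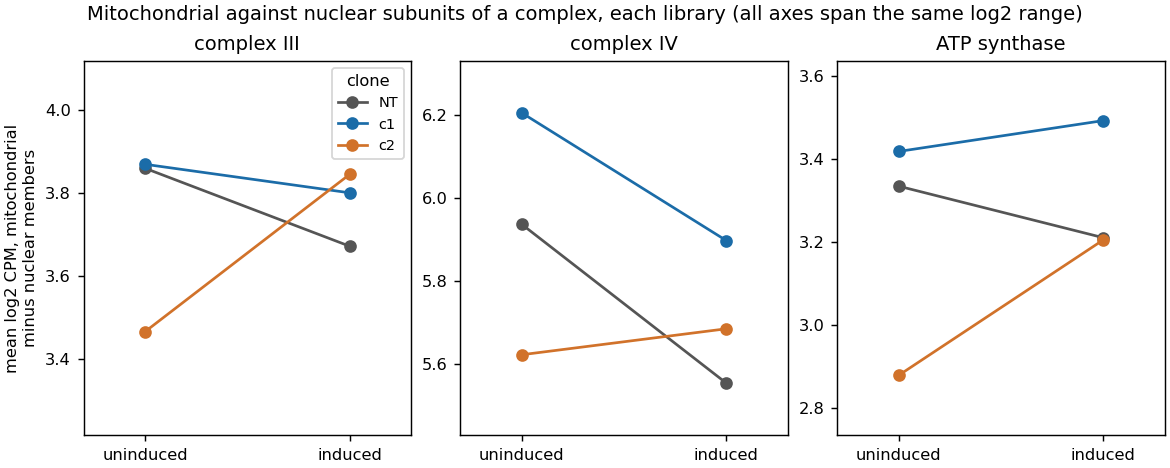
Mean log2 CPM of mitochondrial members minus that of nuclear members in each library, by complex, with a line joining the libraries of each clone. The lines for NT slope down in all 3 complexes and those for c2 slope up, from 3.47 to 3.84 in complex III.

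The nuclear subunits varied little. Over the 6 libraries the highest CPM of a nuclear member was a median of 1.149 times the lowest, from 1.03 for ATP5F1E to 1.67 for COX7A2. For the mitochondrial members the median was 1.401, and over the 4632 tested genes with a mean above 50 CPM it was 1.26. The median response to doxycycline of the 31 nuclear members was −0.03 in NT, −0.03 in c1 and −0.03 in c2 on the log2 scale, against −0.0022 in NT, −0.014 in c1 and −0.0006 in c2 over all genes tested. Of the nuclear members, 26 were lower in the induced library in NT, 18 in c1 and 22 in c2. Over all genes tested, 49.1% were higher in the induced library in NT, 47.2% in c1 and 49.7% in c2. A response beyond 1.2-fold was seen in 0 nuclear members in NT, 1 in c1 and 0 in c2, against 25.3%, 32.6% and 23.8% of all genes tested. These shares are not matched for abundance. Over all genes tested the highest CPM was a median of 1.445 times the lowest, more than the 1.26 above 50 CPM.

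**Figure D4:**
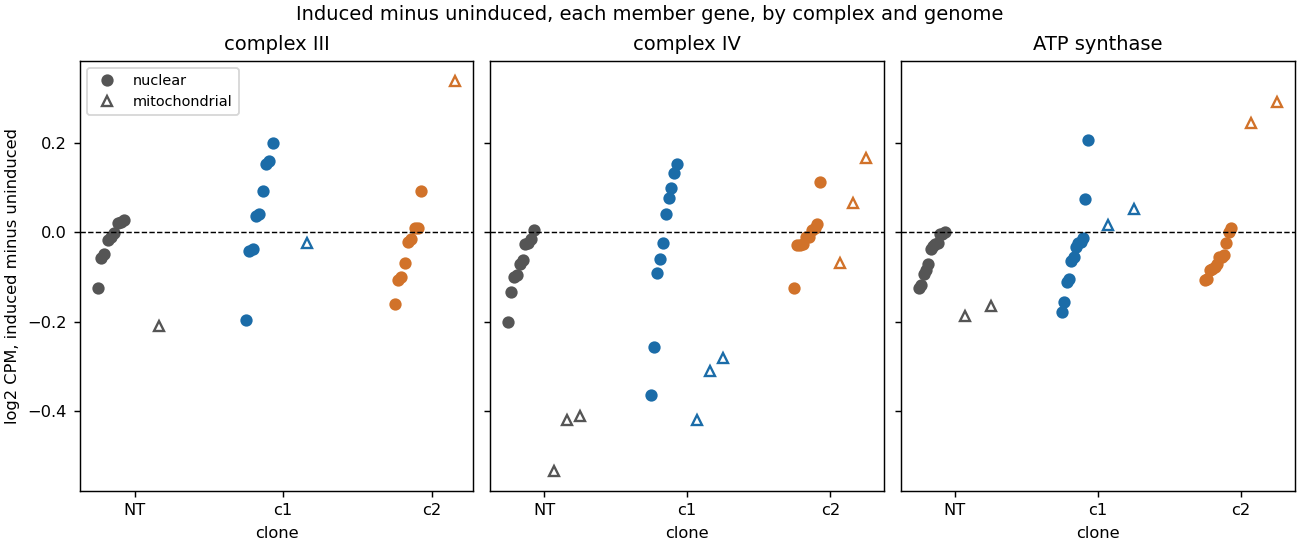
Log2 CPM of the induced minus the uninduced library for each member, by complex and clone, with filled circles for nuclear and open triangles for mitochondrial genes. The nuclear genes cluster near 0, between −0.20 and 0.03 in NT, while the mitochondrial genes of NT lie between −0.53 and −0.17.

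No member was called in the comparison of the 2 knockdown libraries with the 4 controls, the contrast the series was designed for. The edgeR quasi-likelihood test called 0 of the 37 members and 0% of the 14075 genes tested, with 0 members and 322 genes at an unadjusted p under 0.05. With the clone as a replicate block, so that induced and uninduced libraries of a clone are compared with each other, 0 members and 0.0426% of genes were called. DESeq2 also called 0 members, with 22 genes called in all, or 113 with the block. The 3 nuclear members of smallest p were ATP5F1A, ATP5PD and ATP5PB. ATP5F1A (chr18:46080248-46104334), the alpha subunit of the ATP synthase, stood at 553 and 551.5 CPM in uninduced and induced NT, 571 and 513 CPM in c1, and 535.5 and 510 CPM in c2. Both knockdown libraries were below all controls, with a log2 fold change of −0.11 ± 0.06 (SE, adjusted p = 1 by edgeR). ATP5PB, the b subunit of the stator stalk, stood at 514 and 482 CPM in NT, 539 and 476 CPM in c1, and 512 and 484 CPM in c2, with a log2 fold change of −0.09 ± 0.07. Each induced library of ATP5PB was below each uninduced one, NT included. ATP5PD stood at −0.29 ± 0.20, with its low values in both libraries of c1 and c2. Over all members, 3 had knockdown libraries that did not overlap the controls (UQCRC1, ATP5F1A and ATP5F1E, all lower), against 9.56% of all genes tested. In simulated data of this comparison the unblocked test recovered 0% of 1.25-fold and 75.6% of 2-fold changes, and the blocked test 49.1% and 100%.

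Induced against uninduced CDAN1 shRNA clones also gave no call among the members. Without the block edgeR called 0 members and 0% of genes (207 genes at an unadjusted p under 0.05), and DESeq2 called 0 members and 2 genes. With the block edgeR called 0 members and 1% of genes. In that fit 2 members (5.4%) had an unadjusted p under 0.05, against 12.97% of all genes. MT-CO1 stood at −0.24 ± 0.08 (adjusted p = 0.237, edgeR with the block) and MT-ATP8 at 0.15 ± 0.07 (adjusted p = 0.384, edgeR with the block). Of the nuclear members ATP5PB, ATP5F1A and COX7B had the smallest p without the block, at −0.13 ± 0.08, −0.11 ± 0.08 and −0.15 ± 0.10. In simulated data of this comparison the unblocked test found 0% of genes changed 2-fold, so its 0 calls say nothing about the members. With the block it recovered 69.6% of 1.25-fold and 100% of 1.5-fold changes, while 24.4% of its calls were false.

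The response of the CDAN1 shRNA clones was also set against the NT response itself. In the blocked fit all 6 mitochondrial members had a positive difference, from 0.29 for MT-CO1 to 0.37 for MT-CYB. The NT library pair was lower with doxycycline for each of them. For the 31 nuclear members the median difference was 0.02. None was called: edgeR called 0 members and 0% of genes without the block (79 genes at an unadjusted p under 0.05). With the block it called 0 members and 0.135% of genes, with 3 members (8.1%) and 4.92% of all genes at an unadjusted p under 0.05. The smallest adjusted p of a member was 0.856 with the block (edgeR, MT-ATP8). DESeq2 called 0 members without or with the block, and 5 or 8 genes in all. The NT response rests on 1 library pair, and in simulated data the unblocked test found 0% of genes changed 2-fold and the blocked test 8.37% of those changed 1.25-fold. Without the block the nuclear member of smallest p was COX7B at −0.15 ± 0.18.

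Doxycycline over all 3 clones, 3 induced against 3 uninduced libraries, had MT-CO1 as its member of smallest p. With the block its log2 fold change was −0.34 ± 0.08, with an unadjusted p of 0.00337 and an adjusted p of 0.181 by edgeR. MT-CO2 followed among the mitochondrial members at −0.22 ± 0.08 (adjusted p = 0.323, edgeR with the block). Among nuclear members ATP5PB stood at −0.12 ± 0.04, ATP5PO, a stator subunit of the ATP synthase, at −0.10 ± 0.04, and ATP5F1C, its central gamma subunit, at −0.10 ± 0.04, none of them called. In each of these 3 genes the induced library was lower in all 3 clones. ATP5PO stood at 346 and 319 CPM in NT, 369 and 342 CPM in c1, and 393.5 and 371 CPM in c2, so uninduced and induced libraries overlapped between clones. Without the block the nuclear members of smallest p were ATP5PB, ATP5PO and ATP5PF, a peripheral stalk subunit, the last at −0.09 ± 0.07. In all, edgeR called 0 members and 0% of genes without the block (217 genes at an unadjusted p under 0.05) and 0 members and 0.128% of genes with it. With the block 5 members (13.51%) had an unadjusted p under 0.05, near the 13.63% of all genes. DESeq2 called 0 members, with 6 genes in all, or 145 with the block. When either library of c2 was left out of the blocked fit, MT-CO1 (−0.47) and MT-CO2 (−0.36) were called lower, with NT and c1 as the remaining pairs. These fits drop the clone with the highest responses of both genes, −0.07 for MT-CO1 and 0.07 for MT-CO2. The share of all genes called in them is not given here, so these 2 calls have no background to be read against. In simulated data the blocked test recovered 75.9% of 1.25-fold changes, and the unblocked test 0%.

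The clones themselves differed in a few nuclear subunits, most of all in ATP5PD and COX5A. ATP5PD (chr17:75038863-75046985), subunit d of the stator stalk, stood at 137.5 and 135 CPM in NT, 89.4 and 87.8 CPM in c1, and 101 and 102 CPM in c2. The 2 libraries of a clone nearly coincided and no clone overlapped another. ATP5PD was lower in c1 than in NT by a log2 fold change of −0.62 ± 0.05 (adjusted p = 0.000343, edgeR) and lower in c2 than in NT by −0.43 ± 0.05 (adjusted p = 0.00167, edgeR). COX5A (chr15:74919791-74938168), a subunit of complex IV that faces the matrix, stood at 205.5 and 197 CPM in NT, 141 and 148.5 CPM in c1, and 228 and 223 CPM in c2. It was lower in c1 than in NT by −0.47 ± 0.06 (adjusted p = 0.00114, edgeR) and higher in c2 than in c1 by 0.64 ± 0.06 (adjusted p = 0.000233, edgeR). The calls of ATP5PD against NT and of COX5A against c1 or NT named here were kept when each library was left out in turn.

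COX7B and COX4I1 were higher in both CDAN1 shRNA clones than in NT. COX7B (chrX:77899438-77907373), a small subunit of complex IV, stood at 110 and 110 CPM in NT, 155 and 129.5 CPM in c1, and 135 and 133 CPM in c2. Its log2 fold change was 0.37 ± 0.07 in c1 against NT (adjusted p = 0.00971, edgeR) and 0.29 ± 0.07 in c2 against NT (adjusted p = 0.0308, edgeR). COX4I1 (chr16:85798633-85807044), the widely expressed isoform of a subunit through which ATP and ADP regulate complex IV, stood at 307.5 and 287 CPM in NT, 347 and 341 CPM in c1, and 369 and 366 CPM in c2. It was higher by 0.21 ± 0.05 in c1 (adjusted p = 0.0187, edgeR) and 0.31 ± 0.05 in c2 (adjusted p = 0.0054, edgeR). The libraries of each clone lay apart from those of NT for both genes. Without uninduced NT the call of COX7B was lost in both clones (0.29 in c1 and 0.21 in c2), and in c2 also without uninduced c2 (0.34) or induced c2 (0.25). The call of COX4I1 was lost in c1 without uninduced NT (0.25), induced NT (0.16) or induced c1 (0.19), and in c2 without induced NT (0.26) or induced c2 (0.29).

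ATP5F1C, ATP5PO, ATP5MC1 and UQCRH were also called higher in c2. The c2 libraries had the highest megakaryocyte markers (ITGA2B at 72.5 and 66.7 TPM, against 5.29 to 17.1 TPM in NT and c1). They also had the lowest zeta globin (HBZ at 1933 and 2381 TPM, against 3705 to 4633 TPM). Other erythroid markers did not follow HBZ: GATA1 was highest in c2 (331.1 and 307.3 TPM, against 272.9 to 293.8 TPM). The lowest library for KLF1 and TAL1 was uninduced c1 (131.5 and 43.17 TPM). The part of these marker differences in the c2 calls was not tested. ATP5F1C (chr10:7788129-7807815) stood at 257 and 235.5 CPM in NT, 266 and 247 CPM in c1, and 319 and 302 CPM in c2, so both c2 libraries lay above the rest. It was higher in c2 than in NT by 0.34 ± 0.05 (adjusted p = 0.00305, edgeR) and than in c1 by 0.28 ± 0.05 (adjusted p = 0.00553, edgeR), and the second call was lost without induced c2 (0.28, adjusted p = 0.0506, edgeR). ATP5PO was higher in c2 than in NT by 0.20 ± 0.05, a call lost without any 1 of the NT and c2 libraries (0.19 to 0.22). ATP5MC1, one of the genes for subunit c of the membrane ring, was higher in c2 than in c1 by 0.33 ± 0.07, from 54.9 and 53.6 CPM in c1 to 69.6 and 67.0 CPM in c2. This call was lost without uninduced c2 (0.32) or induced c2 (0.37). UQCRH was higher in c2 than in c1 by 0.23 ± 0.07, with 457 and 442 CPM in NT, 364 and 417 CPM in c1, and 455 and 458 CPM in c2. Uninduced c1 was the low library, and without it the difference was 0.11 and not called. The call was also lost without uninduced c2 (0.20) or induced c2 (0.28). ATP5PD was also higher in c2 than in c1, by 0.19 ± 0.05, and UQCRFS1, the Rieske iron-sulfur protein of complex III, lower by 0.18 ± 0.05. These last calls were each kept in 1 of the 6 fits that leave out a library.

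Among mitochondrial members, MT-CO1 and MT-CO2 were higher in c1 than in NT by 0.38 ± 0.10 each, and MT-ATP6 was lower in c2 than in c1 by a log2 fold change of −0.39 ± 0.10. The calls of MT-CO1 and MT-CO2 were lost without induced NT (0.22 for both), without uninduced c1 (0.32 and 0.31) or without induced c1 (0.43 and 0.44), and that of MT-ATP6 without uninduced c2 (−0.20), uninduced c1 (−0.38) or induced c1 (−0.41). DESeq2 called none of the 3 (adjusted p = 0.118 for MT-CO1, 0.124 for MT-CO2 and 0.0913 for MT-ATP6), and edgeR without a doxycycline term did not call MT-CO1 or MT-CO2 (adjusted p = 0.184 and 0.1). Of the nuclear calls DESeq2 lost ATP5PD (adjusted p = 0.079) and UQCRFS1 (adjusted p = 0.119) in c2 against c1, and edgeR without the doxycycline term lost COX7B and ATP5PO in c2 against NT and UQCRH, ATP5PD and UQCRFS1 in c2 against c1. With transcript length as an offset edgeR lost COX7B in c2 against NT, and ATP5MC1, UQCRH, ATP5PD and UQCRFS1 in c2 against c1. UQCRFS1 was also lost with other library scaling factors (RLE) and without the filter on low counts. In all DESeq2 called 5 members in each of the 3 comparisons, among them UQCRH in c1 against NT and MT-ATP8 in c2 against c1, which edgeR did not call. Of the 14075 genes tested DESeq2 called 2929 in c1 against NT, 2190 in c2 against NT and 2732 in c2 against c1. Altogether edgeR called 6 of 37 members in c1 against NT (4 higher, 2 lower), where 27.8% of all genes were called. It called 5 in c2 against NT (4 higher, 1 lower), where 21.1% were called, and 7 in c2 against c1 (5 higher, 2 lower), where 26.8% were called. The members were thus called no more often than genes at large. In data simulated for c1 against NT the test recovered 49.5% of 1.25-fold changes, and 10.8% of its calls were false, or 2.5% where genes of like abundance shared 1 dispersion.

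**Figure D5:**
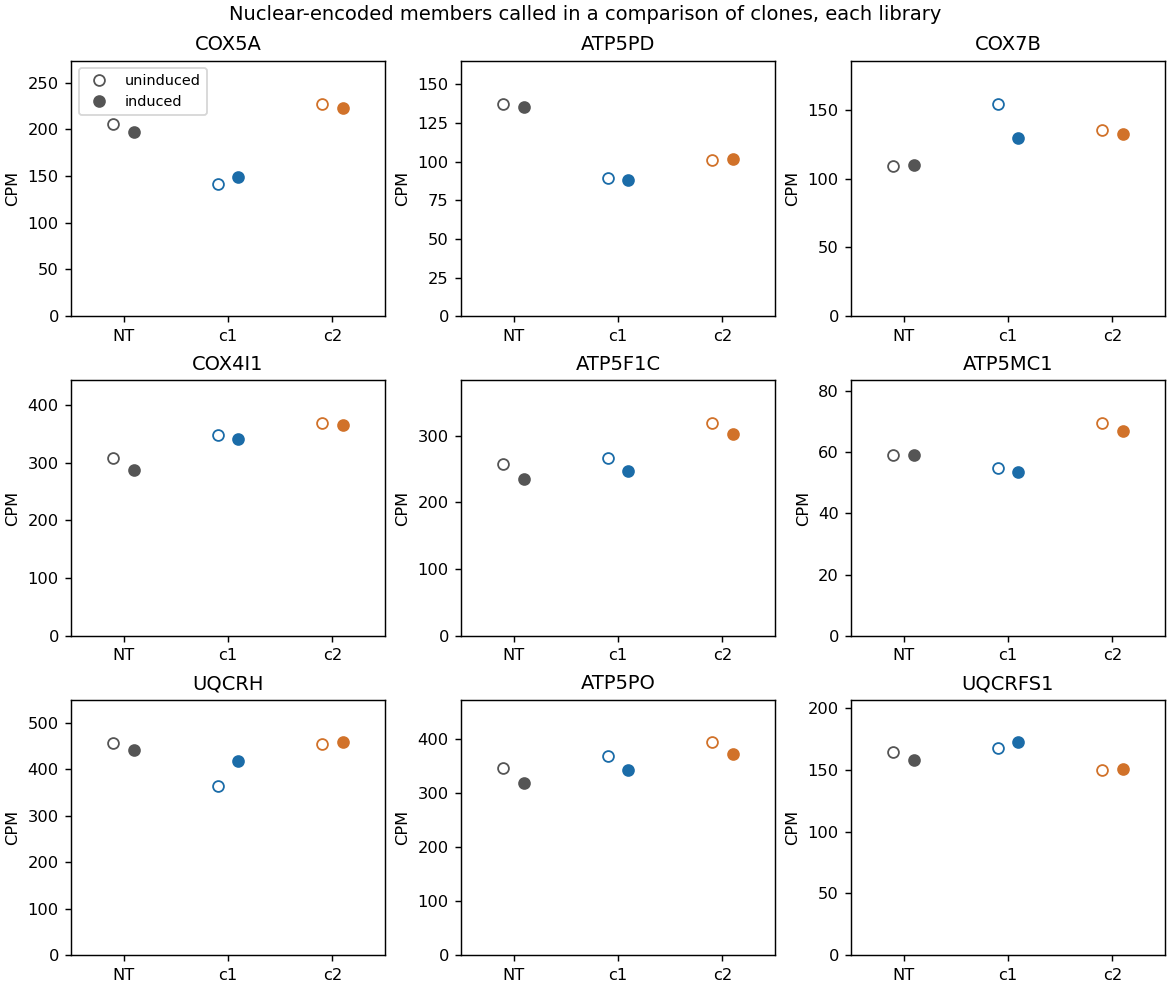
CPM of the 9 nuclear members called in a comparison of clones, with open circles for uninduced and filled circles for induced libraries (each axis starts at 0). For ATP5PD and COX5A the circles of a clone lie close together and c1 is the lowest clone, at 87.8 to 89.4 CPM and 141 to 148.5 CPM.

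The start regions of these genes were searched for motifs of factors known to act on respiratory genes. NRF1 (searched as CGCANGCG), ETS factors such as GABPA (CCGGAAG), YY1 (AANATGGCG) and cAMP-response factors (TGACGTCA) were sought on both strands, from 250 bases before to 50 bases after the start, in RefSeq sequence of GRCh38.p14. A promoter was given for 25 of the 31 nuclear members. NRF1 matched 9 of them (36.0%), ETS 11 (44.0%), YY1 5 (20.0%) and the cAMP element 1 (4.0%). Over the promoters of tested genes the shares were 21.8%, 22.0%, 7.9% and 3.8%, and over all promoters 12.0%, 12.2%, 3.8% and 2.2%. Any of the 4 motifs was found in 18 of the 25. Of the 9 nuclear members called between clones 7 held a match, a share near that of the members at large, and COX5A and COX7B held none of these letters. The windows of 30 bases below are shown to let the matches of 5 called genes be compared, on the strand of the gene, with the match in capitals. They lie at chr17:75047052-75047081 (minus strand) for ATP5PD, chr1:46303641-46303670 (plus) for UQCRH, chr10:7788145-7788174 (plus) for ATP5F1C, chr21:33915871-33915900 (minus) for ATP5PO and chr17:48892719-48892748 (plus) for ATP5MC1.
ATP5PD, ETS: ccgggaagataCTTCCGGaaccagccctca
UQCRH, ETS: agtgtgccgcaCTTCCGGccagatcgccgg
ATP5F1C, NRF1: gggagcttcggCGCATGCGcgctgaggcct
ATP5PO, NRF1: ggaggtctctgCGCCTGCGgcctgacgccc
ATP5MC1, cAMP element: tggggaatcgaTGACGTCAaccaatgggga

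Other genes of these complexes and of their expression were read from lists. Their calls are to be read against the 27.8% of all genes called in c1 against NT, 21.1% in c2 against NT and 26.8% in c2 against c1. Among 11 tested further subunits and isoforms, c1 against NT called 2 higher and 3 lower (45.5%), in a list too short to set apart from that background. NDUFA4, a subunit bound to complex IV, was higher by 0.30 ± 0.05 and CYCS, cytochrome c itself, by 0.20 ± 0.05, while ATP5ME, a membrane subunit of the ATP synthase, was lower by 0.46 ± 0.10, ATP5MG, another, by 0.22 ± 0.05 and ATP5IF1, its inhibitor, by 0.36 ± 0.07. In c2 against NT 1 was called higher, ATP5MF by 0.36 ± 0.08, and 2 lower, ATP5IF1 by 0.47 ± 0.07 and ATP5MG by 0.21 ± 0.05. Of 6 complex III assembly factors UQCC2 was lower in c1 (−0.33 ± 0.09) and in c2 (−0.43 ± 0.09), and UQCC3 in c2 (−0.41 ± 0.10). Of 24 tested complex IV assembly factors 3 were called in c1 against NT (12.5%) and 2 in c2 against NT (8.33%), shares below the background. TACO1, which activates translation of MT-CO1, was lower in c1 by 0.63 ± 0.08 and in c2 by 0.53 ± 0.08. COX16 was lower in c1 by 0.32 ± 0.10, COX20 higher in c1 by 0.24 ± 0.07 and FASTKD1 higher in c2 by 0.34 ± 0.07. Of 5 ATP synthase assembly factors FMC1 was lower in c1 (−0.67 ± 0.15).

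Of 25 genes for the copying, transcription and processing of mitochondrial DNA, 4 were called in c1 against NT, 2 higher and 2 lower, and 2 in c2 against NT, 1 in each direction. These shares, 16% and 8%, were below the 27.8% and 21.1% of all genes. TFAM, which packages mitochondrial DNA and starts its transcription, was higher in c1 by 0.35 ± 0.05 and SSBP1 by 0.26 ± 0.05. POLG2, an accessory subunit of the mitochondrial DNA polymerase, was lower by 1.67 ± 0.16 in c1 and by 0.86 ± 0.16 in c2, and POLG, its catalytic subunit, by 0.62 ± 0.06 in c1. MTERF1 was higher in c2 by 0.45 ± 0.10. Of 11 tested nuclear regulators of respiratory genes 2 were called in c1 against NT and 0 in c2 against NT. GABPA was higher in c1 by 0.40 ± 0.08 and PPRC1 by 0.23 ± 0.06. Of the 7 other mitochondrial protein-coding genes, all for complex I, MT-ND3 was lower in c2 than in NT by 0.42 ± 0.07. None of the genes in these lists was called in the knockdown or doxycycline comparisons, with or without the block. The isoforms COX4I2 and COX8C were listed at 0 in all 6 libraries, and COX6A2, COX7A1, COX6B2 and COX7B2 at no more than 3.11 TPM.

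Subunit c of the ATP synthase is encoded by 3 genes whose mature proteins are the same. By TPM, ATP5MC3 made up 52.2% ± 2.4 of their sum, ATP5MC2 36.7% ± 1.6 and ATP5MC1 11.03% ± 1.1 (SD, n = 6 libraries). ATP5MC3 was highest in both c1 libraries, at 55.97% and 54.3%, and lay between 49.7% and 51.6% in the others. By read number, which does not correct for length, the shares were 64.6%, 28.3% and 7.03%.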

How the data were processed

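Per the submitters' processing notes, reads were quantified with Salmon 1.5.2 on GRCh37 (hg19). The transcript annotation, trimming and strandedness: not given in the sources used here. The deposited tables give an estimated count of reads (expected counts), a TPM value and an effective length per transcript, per the file headers. Of 167268 transcripts, 151039 (90.3%) matched GENCODE 29 and were summed to 33367 genes. The other 16229, with 6.23% to 6.5% of a library's reads, were left out. GENCODE 29 lies on GRCh38, and coordinates are given on it. Gene sums were rounded, filtered (filterByExpr, smallest group 2) and scaled by TMM, with a prior count of 2 for log2 CPM.

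Tests were edgeR 4.0.16 quasi-likelihood in R 4.3.3, two-sided, adjusted by Benjamini-Hochberg over 14075 genes (threshold 0.05). DESeq2 1.42.0 and other settings served as alternatives. Fold changes of clones come from a fit with doxycycline as a term. Clone pairs the samples, since each clone gave both libraries: deviations from the group means correlated at r = 0.722 in NT, 0.778 in c1 and 0.82 in c2. The genes named are the mitochondrial members, those called, and in comparisons with no call the 3 nuclear members of smallest p. The members and lists were chosen with earlier results of these data known.

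The tests were checked on simulated counts with the real means and library sizes, with 200 of 14075 genes changed in each of 3 draws. The changed genes were drawn from the 4632 with a mean above 50 CPM. The recovery given thus holds for such genes, and not for COX7A2 (3.77 to 6.30 CPM) or other genes of low count. At a 2-fold change the unblocked test recovered 75.6% of genes in knockdown against controls, 64.4% in doxycycline and 0% in the comparisons on 4 groups, so those say little without the block. False calls exceeded 5% where dispersion differed between genes: 11.1% in knockdown, 24.4% in induced against uninduced, 30.9% in the difference of responses and 12.5% in doxycycline, all with the block, and 9.98% to 10.8% between clones. With a shared dispersion they were 2.5% to 5.15%. Blocked and clone calls may therefore hold more false ones than the threshold states. The share of false calls also depends on how many genes differ. Only 200 of 14075 genes were changed in a draw, while 21.1% to 27.8% of genes were called between the real clones. The simulated shares thus cannot be carried over to the clone calls.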

Additional observations from a re-analysis of the deposited data

Results flagged for a closer look

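Among the 4 control libraries, uninduced c1 lay far from the other 3 for 3 members, by the ratio of its gap to the whole range (Dixon, 95% level). These were UQCRH at 363.9 CPM, COX5B at 146.6 CPM and ATP5MC2 at 226.7 CPM, each the lowest of the controls. Induced c1 was also below all NT and c2 libraries for these genes, at 417.4, 162.9 and 238.7 CPM. Only 1 control came from c1, so the screen cannot tell this library from its clone. Chance gives such a gap in about 1 of 20 groups, and 37 members were screened.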

How the results depend on the processing

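The counts of members called stayed at 0 in knockdown against controls, induced against uninduced clones and the difference of responses under every setting run, the replicate block included (0 members). In doxycycline over all clones it was 0 with the replicate block and 0 to 2 when 1 library was left out. Leaving out a library gave 4 to 7 members in c1 against NT, 3 to 6 in c2 against NT and 2 to 8 in c2 against c1. Without a doxycycline term the count was 3 in c2 against NT and 4 in c2 against c1, and with transcript length as an offset it was 3 in c2 against c1, and the cause was not tested. The share of all genes called in these alternative fits is not given here, so these counts cannot be set against a background. ATP5PD in knockdown against controls turned positive (0.0092 to 0.0096) in blocked fits without a c1 library. The mitochondrial to nuclear changes ran from −0.07 to 0.38 in complex III, −0.31 to 0.06 in complex IV and 0.07 to 0.33 in the ATP synthase when 1 clone was left out. The subunit c shares became 7.03%, 28.3% and 64.6% by reads, which are not corrected for length. Leaving out a library gave 10.8% to 11.3%, 36.5% to 37.3% and 51.5% to 52.7%. The blocked forms of DESeq2, of library sizes without mitochondrial genes and of the leave-one-out fits, and the ratios to MT-CYB, were chosen after seeing the data.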
